A study of Mus musculus with 32 samples.

Results

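The 41 genes described here encode chemokines, cytokines, their receptors and the adhesion molecules that leukocytes use to leave the blood. They were chosen by gene symbol from a fixed list, which was drawn up with earlier results of these data known, and fall into 6 roles. Shares of members set against all genes therefore describe the list and do not test it. There are 8 CC chemokines, 9 CXC and CX3C chemokines, 7 chemokine receptors, 8 genes of interleukin 1, interleukin 18 and the inflammasome, 5 other cytokine genes and 4 adhesion genes. All 41 were found among the 55487 genes of the table, and all 41 were among the 14903 genes with enough counts to be tested.

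RNA of whole mouse liver was sequenced in 32 libraries, 8 in each of 4 groups. These were FAAH S268D mice on the NASH-AA diet, FAAH S268D mice on the NASH diet, WT mice on the NASH-AA diet and WT mice on the NASH diet. FAAH is fatty acid amide hydrolase, which degrades anandamide and N-acyl taurines, and S268D is an amino acid substitution in it. According to the series text every mouse spent 28 weeks on an HFFC diet, given with or without ARA, so no group without the HFFC diet was analysed here. Which of the NASH and NASH-AA diets held ARA is not spelled out in the sample labels, which give neither the age of the mice nor how the substitution was introduced. They also do not say whether replicates were separate animals, so the p-values describe the spread among these libraries, which may be partly technical. Values are normalised CPM (counts relative to the TMM-scaled library size), and fold changes are log2 values ± SE from limma-voom, with p-values adjusted by the Benjamini-Hochberg method over all 14903 genes and 0.05 as the threshold.

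Chemokines are small secreted proteins that bind G protein-coupled receptors on leukocytes and draw these cells along a gradient. In fatty liver disease, CCL2 and its receptor CCR2 are known for bringing blood monocytes into the liver, where they become macrophages. Interleukin 1 beta and interleukin 18 are cut into their active forms by caspase 1, which the NLRP3 inflammasome switches on, and each has a secreted inhibitor, encoded by Il1rn and Il18bp. ICAM1 and VCAM1 on endothelial cells hold leukocytes that have slowed on selectins.

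Several members share a stretch of a chromosome. On GRCm38, Ccl2, Ccl5, Ccl9, Ccl6, Ccl3 and Ccl4 lie within chr11:82035571-83664683. Cxcl1, Cxcl2, Cxcl9, Cxcl10 and Cxcl13 lie within chr5:90891241-95961068, and Cx3cr1, Cxcr6, Ccr1 and Ccr2 within chr9:119901616-124113557. Il1a and Il1b are neighbours at chr2:129299610-129371139, and Ccl22 and Cx3cl1 at chr8:94745590-94782427. RefSeq promoter sequences (GRCm38.p6) were matched for 32 of the 41 members and searched in the 250 bases before the start for 3 short motifs. The NF-kB word, GGG followed by any 2 bases and TTTCC, on either strand, was in the windows of Ccl9, Cxcl1 and Cxcl2 (3 of 32), against 1.4% of 27025 promoters. The AP-1 word TGANTCA, which reads the same on both strands, was in those of Ccl9, Cxcl10, Il1a, Il1rn and Selp (5 of 32), against 6.87%. The TATA word TATAAA, on the gene's strand only, was in 8 of 32, against 8.12%. A match describes letters and is not evidence that a factor binds.

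The 200 bases before the start are shown for 6 members. Ccl3, Il1rn and Icam1 had the smallest p-values in the first comparison, Ccl9 held all 3 words and had the smallest p-value for diet in WT mice, and the neighbours Cxcl1 and Cxcl2 held the NF-kB word at like positions. Capitals mark the words searched, which do not overlap one another in these windows. Positions are counted back from the base before the start. Ccl9 has the TATA word from 92 bases, the AP-1 word from 53 bases and the NF-kB word from 35 bases before the start. The NF-kB word begins 89 and 71 bases before the start of Cxcl1, and 97 and 78 bases before that of Cxcl2. In Il1rn the AP-1 word begins 141 bases before the start, and the windows of Ccl3 and Icam1 hold none of the 3 words.
Ccl3, chr11:83649379-83649578, minus strand: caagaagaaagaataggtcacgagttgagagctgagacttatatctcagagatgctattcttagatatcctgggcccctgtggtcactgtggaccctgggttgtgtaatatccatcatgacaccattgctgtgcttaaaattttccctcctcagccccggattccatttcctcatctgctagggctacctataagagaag
Ccl9, chr11:83578637-83578836, minus strand: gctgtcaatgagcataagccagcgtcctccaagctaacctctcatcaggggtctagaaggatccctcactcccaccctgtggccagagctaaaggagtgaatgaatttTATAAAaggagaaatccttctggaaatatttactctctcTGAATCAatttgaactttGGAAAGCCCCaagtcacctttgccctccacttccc
Cxcl1, chr5:90891045-90891244, plus strand: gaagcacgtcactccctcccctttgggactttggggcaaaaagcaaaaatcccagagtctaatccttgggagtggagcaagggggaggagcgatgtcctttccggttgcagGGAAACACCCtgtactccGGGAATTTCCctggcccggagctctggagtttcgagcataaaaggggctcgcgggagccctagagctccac
Cxcl2, chr5:90903699-90903898, plus strand: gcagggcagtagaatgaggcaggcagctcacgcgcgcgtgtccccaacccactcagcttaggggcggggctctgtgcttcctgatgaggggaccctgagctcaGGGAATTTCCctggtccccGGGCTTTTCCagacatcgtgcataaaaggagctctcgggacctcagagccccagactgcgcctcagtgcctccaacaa
Il1rn, chr2:24336660-24336859, plus strand: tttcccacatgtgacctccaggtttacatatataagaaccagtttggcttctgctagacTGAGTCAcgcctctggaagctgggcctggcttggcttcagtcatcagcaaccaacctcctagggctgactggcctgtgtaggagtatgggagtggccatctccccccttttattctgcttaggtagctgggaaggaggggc
Icam1, chr9:21015740-21015939, plus strand: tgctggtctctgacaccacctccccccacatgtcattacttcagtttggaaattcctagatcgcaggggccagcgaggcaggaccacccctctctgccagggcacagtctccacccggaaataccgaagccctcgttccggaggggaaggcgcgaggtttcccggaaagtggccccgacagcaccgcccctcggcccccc

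Total counts per library ran from 14743252 to 30885136 in FAAH S268D NASH-AA, from 3851626 to 26662783 in FAAH S268D NASH, from 20974885 to 34370178 in WT NASH-AA and from 20654110 to 24873204 in WT NASH. The shallowest library was FAAH S268D NASH replicate 1. The label whole liver was checked with 14 hepatocyte markers, among them albumin (Alb) and transthyretin (Ttr), whose summed level lay between 65150 and 112720 CPM over all libraries. Libraries of a group differed on the members. The mean deviation of the 41 members from their average over all libraries, on the log2 scale, was -0.78, -0.53 and -1.10 in FAAH S268D NASH replicates 2, 3 and 4, and between -0.33 and 0.31 in the other 5 of that group, without a wide gap between replicates 3 and 8. In WT NASH it was -0.28 in replicate 5 and at least 0.44 in the other 7. FAAH S268D NASH-AA ranged from -0.83 to -0.11 and WT NASH-AA from -0.002 to 0.41. Replicates 2, 3 and 4 together held the lowest value of FAAH S268D NASH for 34 of the 41 members, and WT NASH replicate 5 that of its group for 32.

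**Figure D1:**
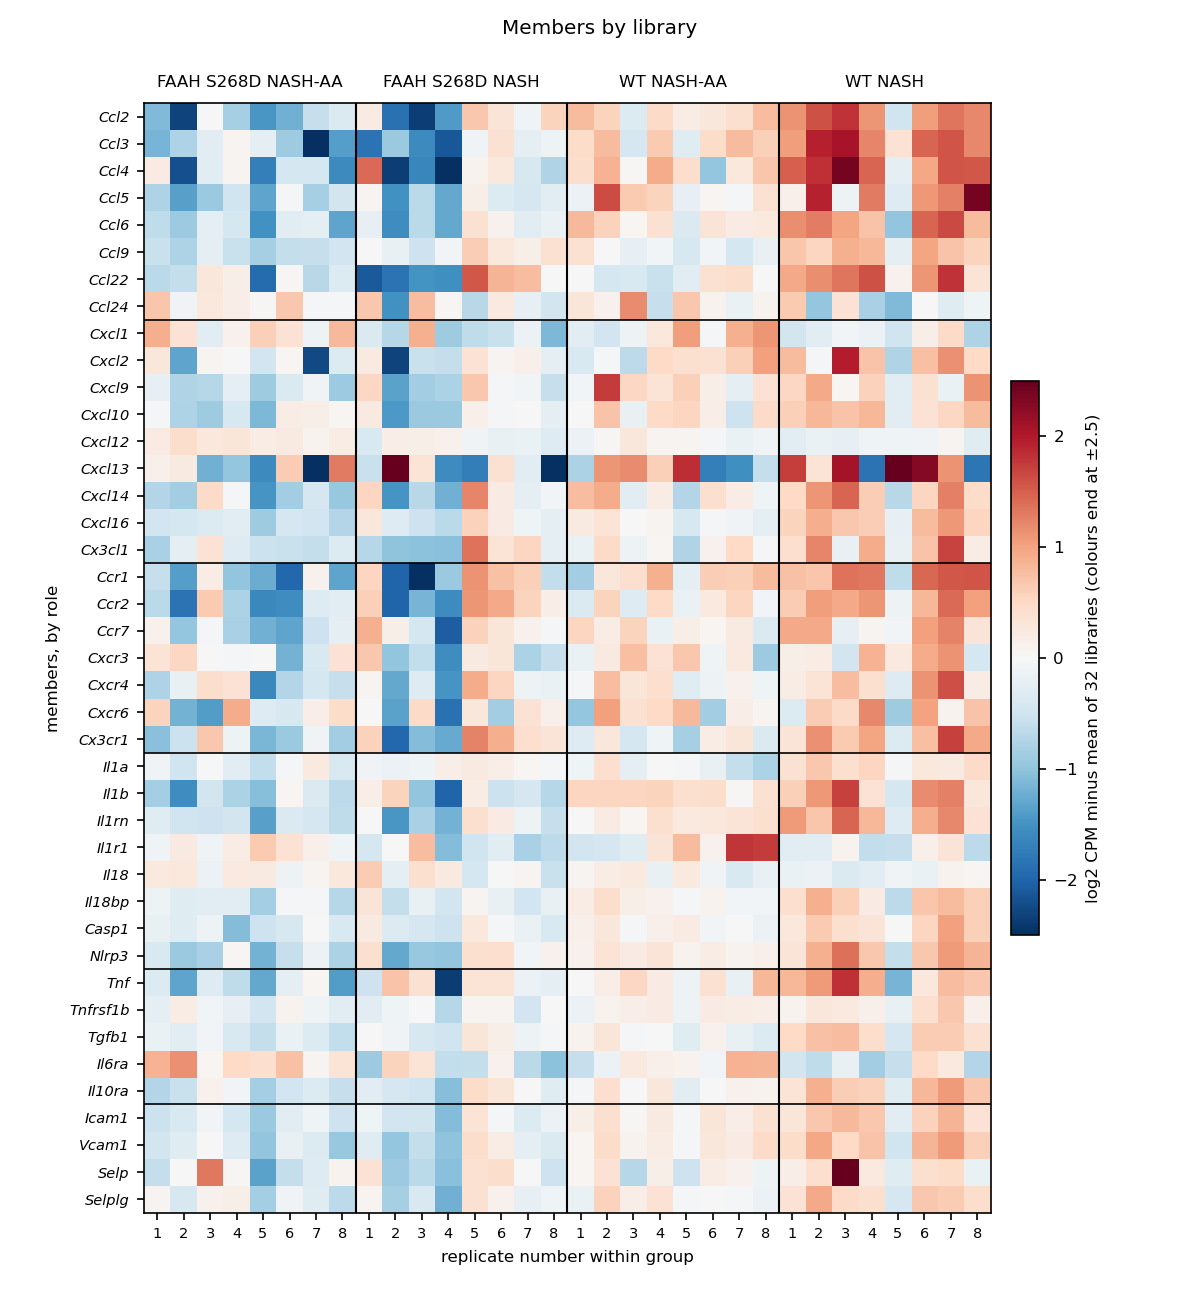
Each row is a member, ordered by role with lines between roles, and each column a library, ordered by group and replicate number. Colour is log2 CPM minus the gene's mean over all 32 libraries, red above and blue below, and colours end at ±2.5. WT NASH replicate 5 is mostly blue, unlike the other 7 of its group, which are mostly red. FAAH S268D NASH replicates 2, 3 and 4 are the bluest of theirs.

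Levels of different members were compared per kilobase of exons. Cxcl12, which encodes the ligand of CXCR4 that keeps blood stem cells and lymphocytes in place, was the highest in every group, with 33.2 CPM per kb in FAAH S268D NASH-AA, 26.7 in FAAH S268D NASH, 28.3 in WT NASH-AA and 25.5 in WT NASH. Ccl6, a macrophage chemokine of rodents, and Tnfrsf1b, the second tumour necrosis factor receptor, ranked next in WT NASH, at 18.1 and 12.2 CPM per kb. At the low end of WT NASH were Cxcr6, a receptor on liver T and NKT cells, at 0.295 and Ccr1, a receptor for CCL3 and CCL5, at 0.364 CPM per kb. Means below 1 CPM were found for 10 members in each of the other 3 groups and for 3 in WT NASH, and counts of 0 occurred in some library for 4 members. By group mean, WT NASH was the highest group for 34 members and FAAH S268D NASH-AA the lowest for 30. Exceptions were Ccl24, Cxcl12, Il18 and Il6ra, for which WT NASH was the lowest group.

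Exons of Cx3cr1, Cxcl10, Cxcl16, Icam1, Il18bp, Il1a, Il1b, Il6ra, Selp and Vcam1 overlap a gene on the opposite strand, and since the strand used in counting is not stated, their values can include its reads.

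The comparison of FAAH S268D with WT on the NASH diet asks how the substitution is associated with these genes when the diet is the same. Of the 41 members, 21 were lower in FAAH S268D (51.2%) and 0 higher, against 6.29% of all tested genes lower, 2.89% higher and 9.18% past the threshold in either direction. The estimate was negative for 37 members, against 49.9% of all genes. The median log2 fold change was -0.78, with a range from -2.38 to 0.08, while the median of all genes was 0.0004. The CC chemokines had 7 of 8 lower, the adhesion genes 3 of 4, the interleukin 1 and inflammasome genes 5 of 8 and the other cytokine genes 3 of 5. Among the CXC and CX3C chemokines 2 of 9 were lower, and among the receptors 1 of 7.

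Ccl3, which encodes the macrophage chemokine MIP-1 alpha, had a lowest, median and highest level of 0, 0.322 and 0.633 CPM in FAAH S268D NASH and of 0.618, 1.24 and 2.05 CPM in WT NASH. The groups overlapped only in that the highest FAAH S268D library exceeded the lowest WT one. The fold change was -2.05 ± 0.34 (adjusted p = 0.000491). These are small numbers of reads, at most 18 counts in FAAH S268D NASH and between 15 and 48 in WT NASH, and the count of 0 came from the shallow replicate 1, where it allows up to 0.829 CPM (3 counts). Ccl4, the neighbouring gene for MIP-1 beta, had 0, 0.226 and 0.83 CPM in FAAH S268D NASH against 0.288, 1.03 and 1.91 CPM in WT NASH. It had the largest fold change of the list, -2.38 ± 0.47 (adjusted p = 0.00346), and the groups overlapped.

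Of the other CC chemokines, Ccl2, whose product attracts monocytes through CCR2, averaged 2.24 ± 1.39 CPM in FAAH S268D NASH and 5.77 ± 2.05 in WT NASH (SD, n = 8 each; fold change -1.60 ± 0.36, adjusted p = 0.00686). Ccl5, which attracts T cells and monocytes, fell by 1.55 on the log2 scale, Ccl6 by 1.34 and Ccl22, a dendritic cell and macrophage chemokine for CCR4, by 1.32. Ccl9, another macrophage chemokine of rodents, fell least of the 7, by 0.54 ± 0.15 (adjusted p = 0.0196). Ccl24, an attractant of eosinophils, averaged 1.80 ± 0.84 CPM in FAAH S268D NASH and 1.61 ± 0.71 in WT NASH, with a fold change of 0.08 (95% interval -0.49 to 0.66).

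Cxcl16, the membrane-bound or shed ligand of CXCR6, had 9.88, 13.9 and 23.45 CPM as lowest, median and highest value in FAAH S268D NASH against 13.6, 24.5 and 33.3 CPM in WT NASH. Its groups overlapped, and the lowest WT library stood well below the other 7. The fold change was -0.75 ± 0.15 (adjusted p = 0.00463). Cxcl10, which attracts activated T cells through CXCR3, averaged 4.32 ± 1.59 and 7.99 ± 1.74 CPM in FAAH S268D NASH and WT NASH (-0.98 ± 0.23, adjusted p = 0.0086). Cxcl9, the partner of Cxcl10 at the same receptor, did not pass (-0.76 ± 0.26, adjusted p = 0.0575). Cxcl2, Cxcl14 and the fractalkine gene Cx3cl1 gave -1.01, -0.91 and -0.74 without passing. The neutrophil chemokine Cxcl1 gave -0.25 (interval -0.80 to 0.29), Cxcl12 0.05 (-0.10 to 0.21) and the B cell chemokine Cxcl13 -1.22 (-2.86 to 0.42), the widest interval of the list.

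Among the 7 receptors, all estimates were negative, between -1.43 and -0.68, and Ccr1 alone passed (-1.43 ± 0.42, adjusted p = 0.0303). Ccr2 averaged 4.49 ± 2.90 CPM in FAAH S268D NASH and 7.36 ± 1.99 in WT NASH (-1.04 ± 0.34, adjusted p = 0.0508). In 25 of 32 libraries the Ccr2 count was not a whole number, as when reads are divided with a similar sequence, so its level is uncertain. Cx3cr1, the fractalkine receptor, Cxcr3 and Cxcr4 gave -0.89, -0.83 and -0.76, and the lymphocyte receptors Cxcr6 and Ccr7 gave -0.73 and -0.68.

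Il1rn, the gene of the interleukin 1 receptor antagonist, had 3.56, 7.77 and 12.98 CPM in FAAH S268D NASH against 7.78, 17.9 and 26.96 CPM in WT NASH. The median of FAAH S268D NASH lay below every WT NASH library, though the highest values of FAAH S268D reached into the WT range. Its fold change was -1.22 ± 0.23 (adjusted p = 0.00181). Casp1, which encodes caspase 1, had 1.89, 2.27 and 3.23 CPM in FAAH S268D NASH against 2.72, 3.75 and 5.52 CPM in WT NASH, again with some overlap (-0.68 ± 0.13, adjusted p = 0.00295). Il1b itself averaged 1.68 ± 0.83 CPM in FAAH S268D NASH and 3.87 ± 1.71 in WT NASH (-1.27 ± 0.28, adjusted p = 0.00678). The sensor gene Nlrp3 fell by 0.92 and Il18bp, the interleukin 18 inhibitor, by 0.70. The agonist and its antagonist were both lower, as were 3 further genes of the same role. Its other members did not pass: Il1a gave -0.31 ± 0.13, the receptor gene Il1r1 -0.13 ± 0.29 and Il18 0.08 ± 0.12, with adjusted p = 0.115, 0.819 and 0.718.

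Icam1 had 10.3, 18.5 and 27.9 CPM in FAAH S268D NASH against 18.3, 34.1 and 39.8 CPM in WT NASH. Only the lowest WT libraries lay within the FAAH S268D range. The fold change was -0.80 ± 0.15 (adjusted p = 0.00277). Vcam1 fell by 0.93 and Selplg, the gene of the P-selectin ligand on leukocytes, by 0.73. P-selectin itself, Selp, averaged 3.01 ± 1.22 CPM in FAAH S268D NASH and 6.10 ± 6.53 in WT NASH and did not pass (adjusted p = 0.18); WT NASH replicate 3 held 22.2 CPM. Of the other cytokine genes, Tgfb1, the fibrosis-linked transforming growth factor, Il10ra, a chain of the interleukin 10 receptor, and Tnfrsf1b fell by 0.55, 0.78 and 0.39. Tnf gave -0.79 ± 0.35 (adjusted p = 0.146) and the interleukin 6 receptor gene Il6ra 0.04 ± 0.24 (adjusted p = 0.938).

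**Figure D2:**
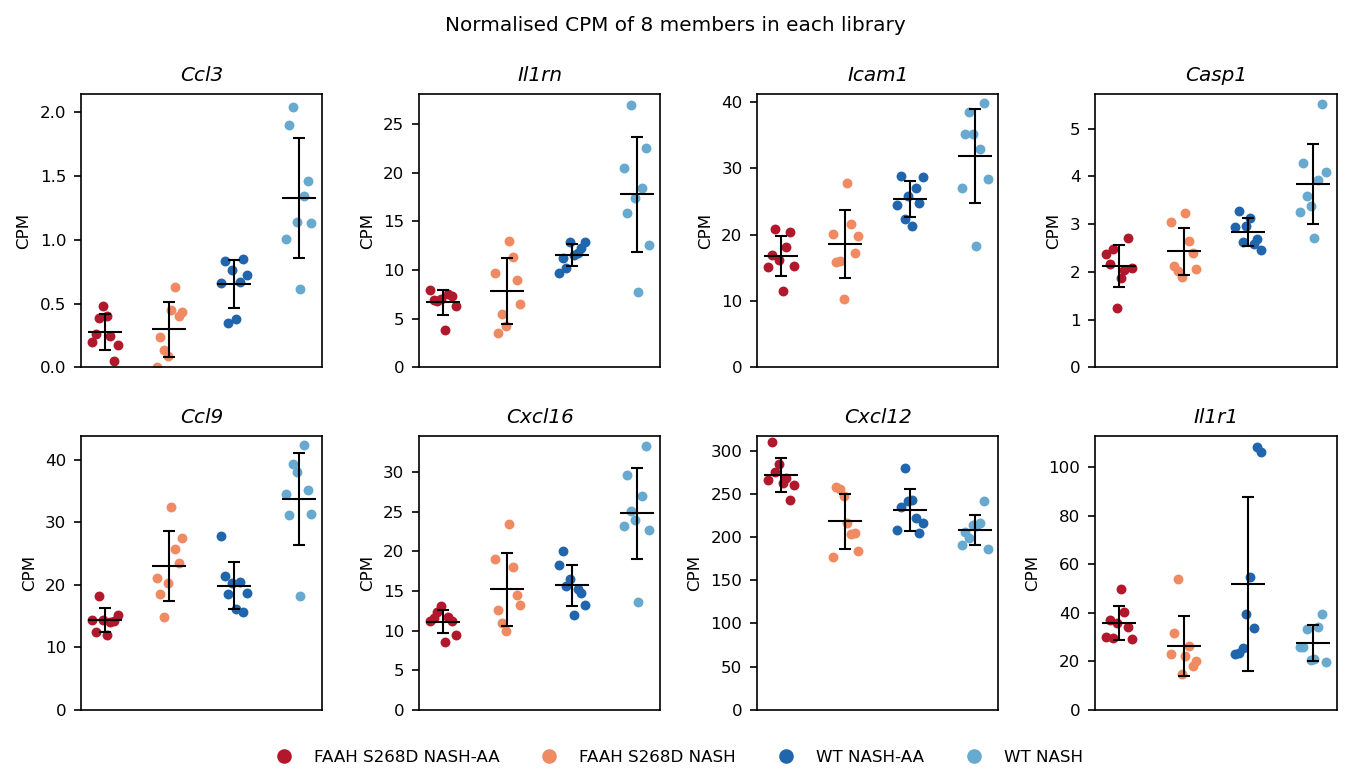
Normalised CPM of 8 members in each of the 32 libraries, 8 per group (axes start at 0), with the mean and SD of each group in black. Ccl3, Il1rn, Icam1 and Casp1 are highest in WT NASH, Ccl9 and Cxcl16 are low in FAAH S268D NASH-AA, Cxcl12 is highest there, and 2 WT NASH-AA libraries stand far above the rest for Il1r1.

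Most related genes outside the 41 that passed were lower as well, beside 6.29% of all genes lower and 2.89% higher. Their lists, like the members, were chosen with earlier results of these data known. Of 15 other adhesion genes 10 were lower in FAAH S268D on NASH, led by the leukocyte integrins Itgb7 (-0.73 ± 0.15) and Itgb2 (-0.98 ± 0.21) and by the hyaluronan receptor Cd44 (-0.90 ± 0.21). Of 16 other inflammasome and NF-kB genes 8 were lower, with the NF-kB subunits Relb (-0.87 ± 0.19) and Nfkb2 (-0.46 ± 0.11) and the bacterial lipoprotein sensor Tlr2 (-0.97 ± 0.23) first. Other cytokine receptors had 10 of 25 lower, first Il10rb, Ifngr1 and Il2rg. The same list held 1 that was higher, Il1rap (0.57 ± 0.13, adjusted p = 0.00746), the co-receptor through which IL1R1 signals, named here after its value was seen. Other chemoattractant receptors had 5 of 12 lower, among them the complement receptor C5ar1 (-1.66 ± 0.38) and the chemerin receptor Cmklr1 (-0.57 ± 0.18). Other cytokines had 2 of 14 lower, Csf1, a growth factor of macrophages, and Il34, which shares its receptor. Of 8 other chemokines, Ccl7 was lower (-1.08 ± 0.34) and Ccl25, an attractant of gut-homing T cells, higher (0.32 ± 0.10).

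Markers of some leukocyte types were lower in the same comparison, and those of others mostly did not pass. Of all genes 6.29% were lower and 2.89% higher. At such shares a short list can hold no call, so a list without calls cannot be told apart from other genes. In bulk tissue, fewer cells of a type and less RNA per cell cannot be told apart. Of 11 monocyte and macrophage markers 9 were lower, with a median fold change of -0.88. Their summed level ran from 319 to 647 CPM in FAAH S268D NASH and from 504 to 1093 CPM in WT NASH. Of 8 markers of lipid-associated macrophages 5 were lower, with sums of 63.6 to 546 CPM in FAAH S268D NASH and 132 to 712 CPM in WT NASH. Of 9 T and NK cell markers 5 were lower, with sums over the 12 listed of 4.37 to 10.5 CPM in FAAH S268D NASH and 5.21 to 13.9 CPM in WT NASH, and 2 of 3 neutrophil markers were lower. No marker of these lists was at 0 in a whole group. Kupffer cell markers had 1 of 8 lower and dendritic cell markers 2 of 8, and none of 10 endothelial, 10 stellate or 7 B cell markers passed. Hepatocyte markers had 3 of 14 higher and 1 lower, with sums of 70575 to 112720 CPM in FAAH S268D NASH and 65150 to 93294 CPM in WT NASH. The part of any of these cell types in the members' values was not tested.

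The number of members called in this comparison changed with the libraries in the fit. With the 16 libraries of FAAH S268D NASH and WT NASH fitted alone, 1 member passed, Ccl3 (-2.04 ± 0.36, adjusted p = 0.0126), against 0.49% of all genes, and the median of the members was again -0.78. In that fit 29 members had an unadjusted p under 0.05, against 33 with all 32 libraries fitted. The share of all genes at that cut-off was not computed in either fit. With a quality weight for each library 24 members were lower and 0 higher, against 13.2% of all genes. Among libraries numbered 1 to 16 alone (5 of FAAH S268D NASH, 4 of WT NASH) 16 passed (5.92% of all genes). Their median was -1.002, with 37 of 41 estimates negative. Among those numbered 17 to 32 alone (3 of FAAH S268D NASH, 4 of WT NASH) 0 passed (0.134% of all genes). There the median was -0.43, with 40 of 41 estimates negative. The library numbers come from the labels, which do not say what they stand for. FAAH S268D NASH replicates 2, 3 and 4 were libraries 6, 10 and 11, so all fall among libraries 1 to 16. The split by number and the next fit therefore concern the same libraries. Leaving out FAAH S268D NASH replicates 2, 3 and 4 together, a choice made after seeing their low values, left 0 passing (0.443% of all genes), a median of -0.42 and 40 of 41 estimates negative. That choice raises the mean of FAAH S268D NASH, so a smaller difference was fixed in advance.

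**Figure D3:**
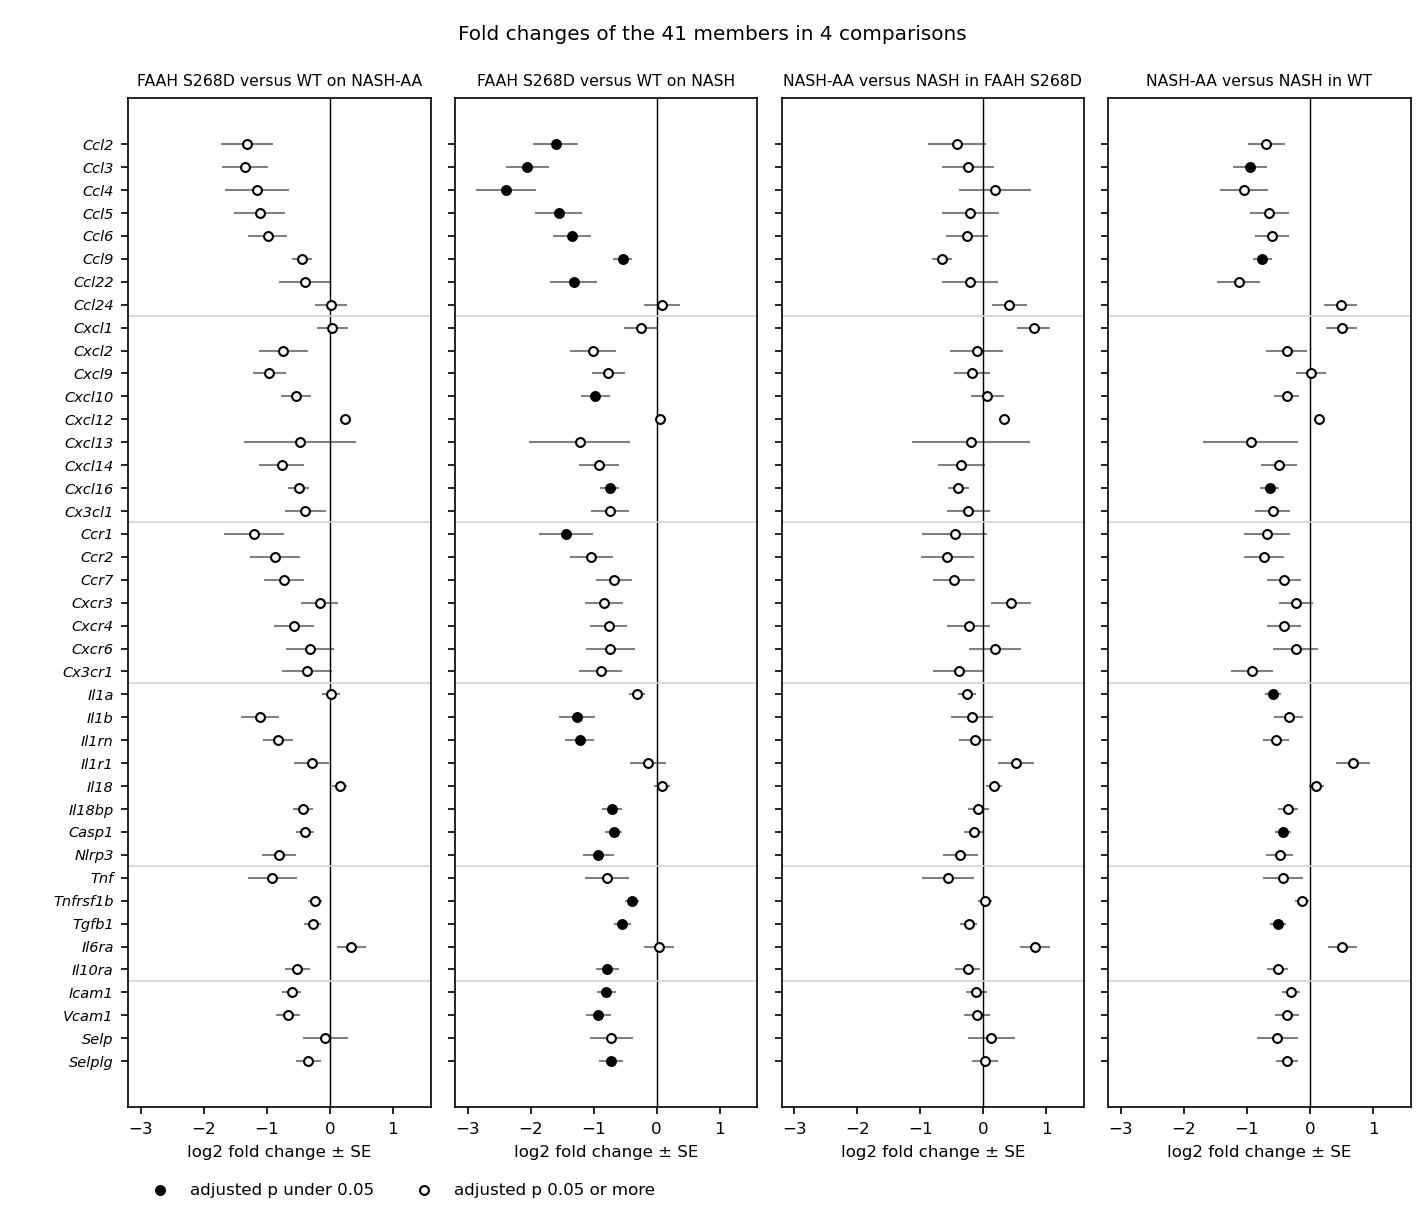
Points are log2 fold changes of the 41 members and bars their SE, by role from top to bottom. The panels give FAAH S268D versus WT on NASH-AA and on NASH, and NASH-AA versus NASH in FAAH S268D and in WT. Filled points passed an adjusted p of 0.05: 0, 21, 0 and 6 members.

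On the NASH-AA diet, 0 of 41 members passed between FAAH S268D and WT, against 0.658% of all genes in either direction and 0.309% lower. Of the members, 24 had an unadjusted p under 0.05, a cut-off at which the share of all genes was not computed. The estimate was negative for 35 members, against 49.4% of all genes. The median fold change was -0.50, against 0.002 for all genes. In 3 members every FAAH S268D NASH-AA library lay below every WT NASH-AA library, Il1rn, Nlrp3 and Icam1, against 0.416% of all genes.

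Icam1 had 11.5, 16.6 and 20.9 CPM as lowest, median and highest in FAAH S268D NASH-AA and 21.3, 25.3 and 28.9 CPM in WT NASH-AA. The groups were separate, and the fold change was -0.61 ± 0.15 (adjusted p = 0.059). Il1rn had 3.81, 7.005 and 7.93 CPM in FAAH S268D NASH-AA and 9.67, 11.7 and 12.9 CPM in WT NASH-AA. It too was separate (-0.82 ± 0.24, adjusted p = 0.106). Nlrp3 reached at most 1.80 CPM in FAAH S268D NASH-AA and was at least 1.85 CPM in WT NASH-AA (-0.81 ± 0.26, adjusted p = 0.154).

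Il1b had 0.688, 1.25 and 2.15 CPM in FAAH S268D NASH-AA against 2.12, 2.93 and 3.09 CPM in WT NASH-AA, which overlapped by the narrowest of margins (-1.10 ± 0.30, adjusted p = 0.0826). Ccl3 had 0.0491, 0.254 and 0.486 CPM against 0.351, 0.697 and 0.85 CPM in FAAH S268D NASH-AA and WT NASH-AA (-1.34 ± 0.37, adjusted p = 0.0826). All but the lowest WT NASH-AA libraries lay above the FAAH S268D range. Cxcl9 had 7.94, 10.3 and 13.9 CPM in FAAH S268D NASH-AA against 12.8, 19.03 and 49.7 CPM in WT NASH-AA, where replicate 2 stood far above the rest (-0.96 ± 0.26, adjusted p = 0.0826). Vcam1 had 11.9, 18.9 and 23.8 CPM against 23.2, 27.2 and 33.3 CPM in FAAH S268D NASH-AA and WT NASH-AA, with a small overlap (-0.67 ± 0.20, adjusted p = 0.112). Against these, Il6ra, Cxcl12, Il18, Cxcl1, Il1a and Ccl24 had positive estimates, from 0.34 down to 0.01.

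More members passed in some other fits. With the 16 libraries of FAAH S268D NASH-AA and WT NASH-AA fitted alone, 17 members passed, against 4.12% of all genes. Of these, 16 were lower in FAAH S268D: Ccl2, Ccl3, Ccl5, Ccl6, Ccl9, Cxcl9, Cxcl16, Ccr1, Il1b, Il1rn, Il18bp, Nlrp3, Tnf, Il10ra, Icam1 and Vcam1. Cxcl12 was higher (0.24 ± 0.06, adjusted p = 0.0471). Il1rn led with -0.82 ± 0.12 (adjusted p = 0.000737) in this fit. With a quality weight for each library, 15 members were lower and 1 higher, against 5.07% of all genes. Among libraries 1 to 16 alone 0 passed (0.127% of all genes), with a median of -0.50. Among libraries 17 to 32 alone 0 passed (0.275% of all genes), with a median of -0.65. The SD of the members' mean deviation was 0.22 in FAAH S268D NASH-AA, 0.49 in FAAH S268D NASH, 0.13 in WT NASH-AA and 0.37 in WT NASH. Without WT NASH replicate 5, which is in neither group, 6 members passed (1.26% of all genes), and without FAAH S268D NASH replicate 4 or 5 or FAAH S268D NASH-AA replicate 3, 1 did (0.678%, 0.718% and 0.752% of all genes).

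**Figure D4:**
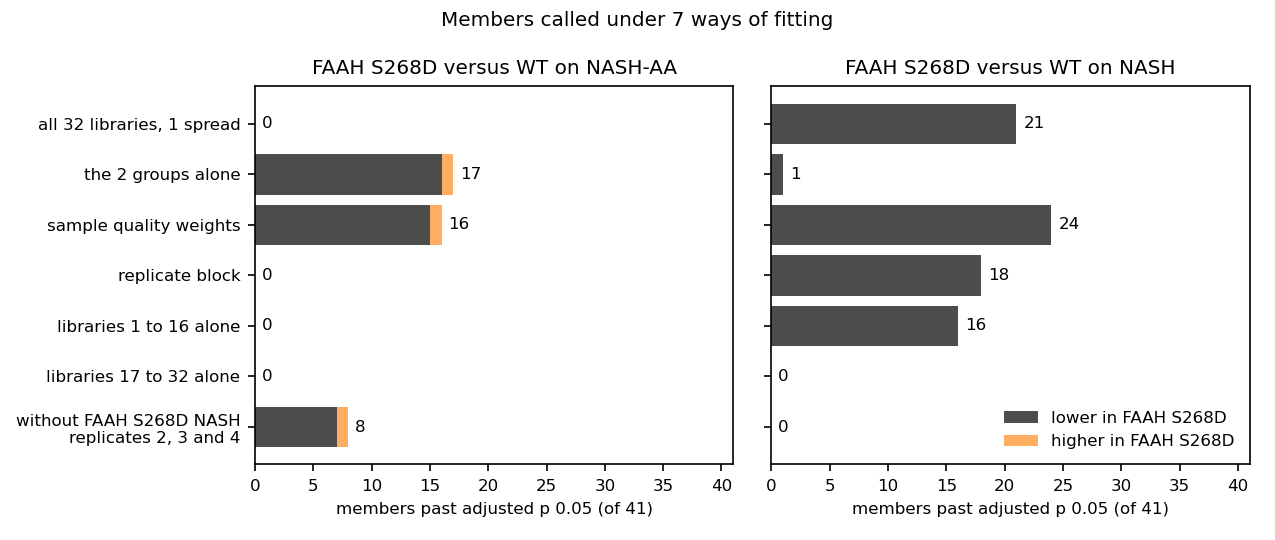
Bars count members past an adjusted p of 0.05, out of 41, between FAAH S268D and WT on NASH-AA (left) and on NASH (right) under 7 fits. Dark parts are members lower in FAAH S268D and orange parts members higher. Fitting the 2 groups alone gave 17 members on NASH-AA and 1 on NASH, whereas the fit of all 32 libraries gave 0 and 21.

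None of the 6 related gene lists had a member past the threshold on NASH-AA, against 0.658% of all genes. The smallest p-values were those of Tlr2 (-0.85 ± 0.22, adjusted p = 0.0699), Irak3, a negative regulator of that receptor, and Pycard, the inflammasome adaptor. Of the monocyte and macrophage markers 0 of 11 passed and 10 had an unadjusted p under 0.05, with a median of -0.69. At that cut-off no share of all genes was computed. Their summed level was 354 to 547 CPM in FAAH S268D NASH-AA and 519 to 673 CPM in WT NASH-AA. Among markers of lipid-associated macrophages 0 of 8 passed and 8 estimates were negative, with a median of -0.83, 4 at an unadjusted p under 0.05 and sums of 73.2 to 204 CPM in FAAH S268D NASH-AA and 104 to 276 CPM in WT NASH-AA. The 3 tested neutrophil markers were all negative with an unadjusted p under 0.05 and a median of -0.88, and the 9 tested T and NK cell markers were all negative with a median of -0.31. The part of these cells in the members' values was not tested.

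In WT mice, the comparison of NASH-AA with NASH asks what the change of diet did with FAAH unaltered. Of 41 members 6 were lower on NASH-AA, Ccl9, Il1a, Cxcl16, Tgfb1, Ccl3 and Casp1, and 0 higher, against 2.97% of all genes lower and 4.41% in either direction. The median fold change was -0.43 and 34 estimates were negative, against 48.9% of all genes. An unadjusted p under 0.05 was found for 22 members, with no share of all genes computed at that cut-off. The 7 receptors and 4 adhesion genes had 0 past the threshold. WT NASH libraries serve here and in the first comparison, so the 2 sets of fold changes are not independent.

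Ccl9 had 15.6, 19.5 and 27.7 CPM as lowest, median and highest in WT NASH-AA against 18.2, 34.9 and 42.3 CPM in WT NASH. Apart from the lowest WT NASH library, the groups were separate. Its fold change was -0.75 ± 0.14 (adjusted p = 0.0172). Il1a, whose product acts from within or on the surface of damaged cells, had 2.26, 3.55 and 5.27 CPM in WT NASH-AA against 3.79, 5.16 and 6.30 CPM in WT NASH (-0.59 ± 0.13, adjusted p = 0.0175). Cxcl16 had 11.9, 15.47 and 20.02 CPM against 13.6, 24.5 and 33.3 CPM in WT NASH-AA and WT NASH (-0.64 ± 0.15, adjusted p = 0.021). Here too, the lowest WT NASH library alone lay within the WT NASH-AA range.

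Tgfb1 had 18.6, 23.04 and 28.8 CPM in WT NASH-AA and 17.6, 34.8 and 39.9 CPM in WT NASH (-0.51 ± 0.13, adjusted p = 0.0318). Its lowest value was in the WT NASH group, in replicate 5. Ccl3 had 0.351, 0.697 and 0.85 CPM in WT NASH-AA and 0.618, 1.24 and 2.05 CPM in WT NASH (-0.95 ± 0.27, adjusted p = 0.0424). Casp1 had 2.45, 2.82 and 3.28 CPM in WT NASH-AA and 2.72, 3.75 and 5.52 CPM in WT NASH (-0.43 ± 0.12, adjusted p = 0.0433). Both overlapped, and both stood close to the threshold.

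Some members had positive estimates for this diet comparison, none of which passed in the fit of all 32 libraries without quality weights. Il1r1 gave 0.68 ± 0.28, Il6ra 0.52 ± 0.23, Cxcl1 0.51 ± 0.24 and Ccl24 0.49 ± 0.26, with adjusted p = 0.122, 0.164, 0.199 and 0.253. Il1r1 averaged 51.9 ± 35.8 CPM in WT NASH-AA and 27.6 ± 7.28 in WT NASH, and the libraries of WT NASH-AA were spread from 23.05 to 108 CPM. By library number, Il1r1 averaged 24.1 ± 1.37 CPM in the WT NASH-AA libraries numbered 1 to 16 (n = 3) and 68.5 ± 36.3 in those numbered 17 to 32 (n = 5). Cxcl1 averaged 11.4 ± 1.34 and 23.1 ± 7.41 CPM in the same sets. Its fold change was -0.05 among libraries 1 to 16 and 0.81 among libraries 17 to 32, while its neighbour Cxcl2, which also binds CXCR2, gave -0.37 ± 0.33 over all libraries.

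Calls in related lists and cell type markers stand beside 2.97% of all genes lower and 1.44% higher. The growth factor Tgfb2 and the alarmin Il33 were lower (2 of 14 other cytokines), as were Il10rb and Ifngr1 (2 of 25 cytokine receptors), the integrins Itgal and Itgam (2 of 15 adhesion genes) and Relb (1 of 16). Of 11 monocyte and macrophage markers 2 were lower, Itgam and Cd14, with summed levels of 519 to 673 CPM in WT NASH-AA and 504 to 1093 CPM in WT NASH. Of other cell types, dendritic cell markers had 3 of 8 lower, cholangiocyte markers 2 of 6, endothelial markers 2 of 10, stellate cell markers 1 of 10 and lipid-associated macrophage markers 1 of 8. The last list had a median of -0.98, with sums of 104 to 276 CPM in WT NASH-AA and 132 to 712 CPM in WT NASH. Hepatocyte markers had 1 of 14 higher and 1 lower. The part of these cells in the members' values was not tested.

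The number of calls for diet in WT moved with the libraries and weights, as did that of all genes. It was 0 within libraries 1 to 16 (0% of all genes) and 0 within libraries 17 to 32 (1.1%), with medians of -0.45 and -0.37. With a quality weight for each library 22 members were lower and 3 higher, against 25.2% of all genes; the 3, named after their values were seen, were Cxcl12, Il1r1 and Il6ra. Without WT NASH replicate 5 there were 18 calls (14.7% of all genes), and without WT NASH replicate 2 there was 1 (0.174%). There were 2 without WT NASH replicate 7 or WT NASH-AA replicate 5 or 8, and 3 without WT NASH replicate 3 or 4 or WT NASH-AA replicate 4 or 7, with between 0.429% and 1.64% of all genes called in these 7 fits.

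In FAAH S268D mice, 0 of 41 members passed between NASH-AA and NASH, against 0.0939% of all genes (0.0671% lower and 0.0268% higher). An unadjusted p under 0.05 was found for 5 members, with no share of all genes computed at that cut-off. In 0 members were the groups separate, against 0.0403% of all genes with NASH-AA lower and 0.0201% with NASH-AA higher. The median fold change was -0.18 with 28 negative estimates, against 48.8% negative among all genes. Cxcl12 had the smallest p-value, with 243, 267 and 310 CPM as lowest, median and highest in FAAH S268D NASH-AA against 177, 211 and 259 CPM in FAAH S268D NASH (0.33 ± 0.08, adjusted p = 0.068). Most FAAH S268D NASH-AA libraries exceeded the highest of FAAH S268D NASH. Ccl9 had 12.002, 14.3 and 18.3 CPM in FAAH S268D NASH-AA against 14.8, 22.2 and 32.5 CPM in FAAH S268D NASH (-0.65 ± 0.16, adjusted p = 0.0798). Of FAAH S268D NASH, the lowest library alone lay within the NASH-AA range.

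Il6ra, whose product binds interleukin 6 on hepatocytes, had 35.3, 47.2 and 76.2 CPM in FAAH S268D NASH-AA against 16.9, 22.6 and 50.6 CPM in FAAH S268D NASH (0.82 ± 0.24, adjusted p = 0.144). Cxcl1 had 11.7, 18.1 and 26.3 CPM against 6.41, 9.22 and 26.1 CPM in FAAH S268D NASH-AA and FAAH S268D NASH (0.80 ± 0.26, adjusted p = 0.201). Both medians were higher on NASH-AA, and both ranges overlapped. Cxcl16 had 8.51, 11.4 and 13.05 CPM in FAAH S268D NASH-AA against 9.88, 13.9 and 23.45 CPM in FAAH S268D NASH (-0.39 ± 0.17, adjusted p = 0.334), and Il1a had 2.55, 3.43 and 4.67 CPM against 3.56, 3.96 and 4.58 CPM (-0.26 ± 0.14, adjusted p = 0.466). The direction of the whole list turned with the library numbers: the median was 0.19 with 12 negative estimates among libraries 1 to 16, and -0.51 with 31 negative among libraries 17 to 32. FAAH S268D NASH replicates 2, 3 and 4 are all among libraries 1 to 16. Without FAAH S268D NASH replicates 2, 3 and 4, 8 members were lower and 3 higher on NASH-AA, against 11.8% of all genes; those 3 libraries were left out for their low values, which raises the mean of the NASH group. Of single libraries, leaving out FAAH S268D NASH replicate 3 gave 4 calls (2.43% of all genes), FAAH S268D NASH replicate 2 gave 2 (0.362%), and FAAH S268D NASH-AA replicate 3 or WT NASH replicate 5 gave 1 (0.336% and 0.114%).

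Whether the genotype difference itself depended on diet was tested by the interaction, in which a positive value means a less negative FAAH S268D effect on NASH-AA than on NASH. In limma-voom 0 of 41 members passed and 0 had an unadjusted p under 0.05, and of all genes 0% passed. So the 21 calls on NASH against 0 on NASH-AA do not show that the genotype difference differed between diets. The estimate was positive for 36 members with a median of 0.27, while 47.6% of all genes had a negative estimate. Ccl4 gave 1.23 (95% interval -0.18 to 2.64), Il1a 0.33 (-0.06 to 0.72) and Cxcl12 0.18 (-0.04 to 0.40), each with adjusted p = 0.906. Ccl4 had 0.0529, 0.245 and 0.397 CPM in FAAH S268D NASH-AA and 0.167, 0.474 and 0.666 CPM in WT NASH-AA, beside the NASH values above. For Il1a, FAAH S268D NASH-AA and WT NASH-AA were at 3.45 ± 0.70 and 3.54 ± 0.91 CPM, and FAAH S268D NASH and WT NASH at 4.02 ± 0.41 and 5.11 ± 0.76 CPM. The members' median was 0.51 among libraries 1 to 16 and -0.12 among libraries 17 to 32. Without FAAH S268D NASH replicates 2, 3 and 4, a choice made after seeing the data, it was 0.006, with 20 of 41 estimates negative. Leaving them out for their low values raises the mean of FAAH S268D NASH, so a lower interaction was fixed in advance. Those libraries are all among libraries 1 to 16.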

How the data were processed

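Whole-liver polyA RNA was extracted with TRIzol and made into Tecan Universal Plus mRNA-seq libraries, per the labels' protocols. Trim Galore 0.6.7, UMI-tools 1.1.2, STAR 2.7.10 and the GRCm38 build are named in the submitters' processing notes; which program and annotation did the counting, and with which strand setting, is not stated there. What the authors deposited are estimated counts with no scaling, 1 value for each of 55487 genes in each of 32 libraries. Of these cells 87.858% were whole numbers, and the others had been altered as text, by grouping marks (11.404%), clock times (0.464%) or day fractions (0.107%), or were plain decimals (0.168%). They were restored by fixed rules, and 0.208% of cells had 2 possible originals (1 of 1312 member cells). Because of this the values were not treated as raw counts. They were rounded to whole numbers and analysed with limma-voom.

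Groups were taken from the labels. A gene was tested if at least 8 libraries reached 0.437 CPM, which equals 10 counts at the median depth, and its total was at least 15 counts, which left 14903. TMM factors (trims of 30% and 5%) and voom (limma 3.58.1, R 4.3.3, prior count 0.5) were fitted with 1 mean per group over all 32 libraries, and p-values were adjusted by the Benjamini-Hochberg method over all genes. Intervals are 95%. Counting error alone is covered by the limits given for counts of 0. Total counts ran from 3851626 to 34370178, so low members such as Ccl3 and Ccl4 rest on few reads. In each comparison the 6 members with the smallest p were described in full (3 in the interaction), and of other lists up to 3 genes, of which 1 is not reported here. The members and lists were chosen with earlier results of these data known. The fitting script was tested on simulated data. Alternatives were another scaling, no or a stricter filter, blocks, subsets of libraries, quality weights, limma-trend and leaving out each library.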

Additional observations from a re-analysis of the deposited data

Results flagged for a closer look

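In each group of 8 libraries the highest and lowest value of every member, and of the members' mean, were compared with the nearest of the others by Dixon's criterion. The comparison used the log2 scale, which stretches differences between low values. Levels of members are given below as CPM, on which the same library need not stand apart. In 22 of 168 sets of 8 the extreme library stood apart, where chance gives about 1 in 20.

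WT NASH replicate 5 was the lowest of its group, and apart from it, for 12 of these. It held 1.77 CPM of Ccl2, 7.95 of Ccl6, 18.2 of Ccl9, 4.37 of Cxcl10, 2.64 of Cxcl14 and 13.6 of Cxcl16. It also held 0.288 CPM of the receptor gene Ccr1, 12.7 of Il18bp, 17.6 of Tgfb1, 16.7 of Vcam1 and 5.60 of Selplg. Its mean over the members was -0.28 on the log2 scale, against at least 0.44 in the other 7. WT NASH replicate 3 was apart at the top for Selp, with 22.2 CPM.

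In WT NASH-AA, replicate 2 was apart at the top for the T cell chemokines Ccl5 (7.72 CPM) and Cxcl9 (49.7 CPM). Replicate 7 was apart at the bottom for Il1b (2.13 CPM), and replicate 6 for Ccl4 (0.167 CPM). In FAAH S268D NASH-AA, replicate 5 was apart at the bottom for Ccl22 (0.134 CPM) and Il1rn (3.81 CPM). In FAAH S268D NASH, replicate 2 was apart at the bottom for Cxcl2 (0.0949 CPM), and replicate 4 for Ccr7 (0.138 CPM) and Tnf (0.092 CPM). These low values of Cxcl2, Ccr7 and Tnf rest on few reads.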

How the results depend on the processing

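Counts of members past the threshold were 21 (genotype on NASH), 0 (genotype on NASH-AA), 6 (diet in WT), 0 (diet in FAAH S268D) and 0 (interaction), against 9.18%, 0.658%, 4.41%, 0.0939% and 0% of all genes; shares of all genes follow in brackets. Genotype on NASH gave 1 with its groups fitted alone (0.49%), 0 among libraries 17 to 32 (0.134%) and 0 (0.443%) without FAAH S268D NASH replicates 2, 3 and 4, a choice made after seeing the data. Those 3 were left out for their low values, which by itself narrows this difference. Genotype on NASH-AA gave 17 with its groups fitted alone (4.12%), 16 with quality weights (5.07%) and 8 without those 3 libraries (1.83%). Diet in WT gave 3 with no filter (0.574%), 0 among libraries 1 to 16 (0%), 0 among libraries 17 to 32 (1.1%), 25 with quality weights (25.2%) and 12 without those 3 libraries (10.1%). Diet in FAAH S268D gave 1 among libraries 17 to 32 (2.5%), 5 with quality weights (7.13%), 1 with limma-trend (0.275%) and 11 without those 3 libraries (11.8%). Leaving out each library in turn gave 15 to 30 for genotype on NASH, where the shares of all genes are not reported here. It gave 0 to 6 for genotype on NASH-AA (1.26% at 6) and 1 to 18 for diet in WT (0.174% at 1, 14.7% at 18). For diet in FAAH S268D it gave 0 to 4 (2.43% at 4), and for the interaction 0 in every case. The causes were not tested.

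With the replicate number as a block (replicate block) the counts were 18, 0, 0, 1 and 0 in the same order (6.45%, 0.423%, 0.114%, 0.0537% and 0%). The numbers did not pair the libraries: over 48 same-numbered pairs the correlation of deviations ran from -0.383 to 0.332, with 13 over 0.1, and 6 of 32 libraries correlated best with their own number.

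Of 1180 alternative values for the members described in full, 1048 kept direction and side of the threshold, 84 no longer passed, 47 newly passed and 1 changed sign: the interaction of Ccl4 was -0.093 among libraries 17 to 32. Most of the 1180 came from fits that left out 1 of the 32 libraries. These share nearly all their data with the main fit, so their agreement with it is partly built in. Ccl3 and Ccl4 rest on few reads in every group.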
